A study of Rattus norvegicus with 30 samples.

Results

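B3galnt1, Rab11fip5, Gucy2c, Npy, Ampd3, Cdr2 and Calml4 are 7 genes whose RNA fell strongly in rat hepatocytes treated with dioctyl phthalate. The set was named as lying outside lipid metabolism, although B3galnt1 makes a glycolipid. The 7 genes were selected on that fall, as the probe sets that the platform's gene table assigns to them. Each gene had 1 such probe set and no other, so the 7 probe sets stand among 31042 non-control probe sets, and the 7 genes among 10528 tested genes. All 7 passed a filter that left out the lowest 40% of probe sets by mean signal, but Calml4 passed only through its vehicle arrays, since 3 of its 4 treated groups lay under the limit of that filter. Because the treated and vehicle arrays chose these genes, their differences between treatment and vehicle are described here without a test.

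The cells were frozen primary hepatocytes of male Sprague Dawley rats, bought from a supplier, thawed onto collagen and covered with Matrigel before dosing on culture day 3. RNA of 30 wells was read on 30 Affymetrix arrays, 5 for each of 6 groups. The groups were vehicle, 250 µM and 1000 µM dioctyl phthalate after 24 h, and the same 3 after 48 h. Every group, vehicle included, carried 1% DMSO. The sources used here do not give how many animals or vials of cells lay behind the wells, so errors and p-values measure the spread between wells. Dioctyl phthalate is a phthalate diester used to soften plastics, and the series asks what it does to these cells over dose and time.

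The 7 genes do not form a pathway. B3galnt1 makes globoside, the glycolipid of the P blood group, by adding N-acetylgalactosamine to globotriaosylceramide. Gucy2c is the receptor guanylate cyclase of the gut lining, which answers guanylin, uroguanylin and bacterial heat-stable enterotoxin with cyclic GMP. Npy is neuropeptide Y, a secreted peptide best known from neurons, where it acts on appetite and vessel tone. Rab11fip5 is an adaptor that binds the small GTPase Rab11 on recycling endosomes. Ampd3 deaminates AMP to IMP. Cdr2 is the antigen of an autoimmune cerebellar degeneration, and its protein binds Myc in the cytoplasm. Calml4 is a calmodulin-like protein, known from human gut cells as a light chain of the myosin that links brush border microvilli.

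Values are the signals that MAS5, the Affymetrix summary software, gave each probe set, on a linear scale in arbitrary units. A log2 signal of 7.88, or a signal of 234, was the limit under which the lowest 40% of probe sets lay, and a group whose mean log2 signal lies under it is called low here. Of the 42 sets of 5 arrays (7 genes in 6 groups), 3 were low, and all 3 belonged to Calml4. In the sentences on single arrays, the 5 signals of a group follow its replicate numbers, which are used here only to name the wells. In bulk RNA, fewer cells that express a gene and less of its RNA per cell cannot be told apart.

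The promoters of 5 of the 7 genes, the 250 bases before the annotated start, were read from RefSeq on the build GRCr8. Ampd3 and Gucy2c had no entry. Shown are 3 of them, the one with most GC boxes (Rab11fip5), that of the gene that stood apart from vehicle at 48 h only (Npy) and the one with no motif (Calml4), 5′ to 3′ on the strand of the gene, with matches to the motifs named next in capitals. Rab11fip5 is at chr4:119466214-119466463 on the minus strand, Npy at chr4:80211861-80212110 on the plus strand and Calml4 at chr8:72218636-72218885 on the plus strand.
Rab11fip5: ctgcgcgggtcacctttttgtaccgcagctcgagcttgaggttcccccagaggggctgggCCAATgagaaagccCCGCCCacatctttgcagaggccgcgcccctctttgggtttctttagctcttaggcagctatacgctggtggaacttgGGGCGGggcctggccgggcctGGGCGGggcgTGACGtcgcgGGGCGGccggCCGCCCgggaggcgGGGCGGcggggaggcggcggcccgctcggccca
Npy: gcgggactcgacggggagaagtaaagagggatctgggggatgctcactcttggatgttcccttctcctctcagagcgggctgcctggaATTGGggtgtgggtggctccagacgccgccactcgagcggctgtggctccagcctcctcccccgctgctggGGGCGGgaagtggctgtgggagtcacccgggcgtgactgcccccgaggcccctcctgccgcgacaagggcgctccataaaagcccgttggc
Calml4: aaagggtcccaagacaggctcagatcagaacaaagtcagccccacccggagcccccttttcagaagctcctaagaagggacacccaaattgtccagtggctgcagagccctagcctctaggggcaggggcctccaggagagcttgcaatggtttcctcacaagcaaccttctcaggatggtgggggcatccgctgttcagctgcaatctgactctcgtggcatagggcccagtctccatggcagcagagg
The motifs searched on both strands were the GC box GGGCGG, the CCAAT box CCAAT, the TATA box TATAAA, the nuclear receptor site AGGTCA, the Myc and Max E box CACGTG and the cyclic AMP response element core TGACG. None of them overlapped another here. The GC box stood in 4 of the 5 promoters (B3galnt1, Rab11fip5, Npy and Cdr2), against 58.5% of the promoters of 8840 tested genes and 30.5% of all 33469 promoters. Rab11fip5 held 6 GC boxes, Cdr2 held 2, and B3galnt1 and Npy held 1 each. The CCAAT box stood in 3 of 5 (Rab11fip5, Npy and Cdr2), against 35.9% of tested genes' promoters and 34% of all promoters. TGACG stood in Rab11fip5 alone among the 5, against 28.1% and 18.2%. AGGTCA was in 0 of 5 (10.9% of tested genes' promoters and 14.1% of all), TATAAA in 0 of 5 (6.99% and 12.9%) and CACGTG in 0 of 5 (8.42% and 5.59%). The share of G and C was 73.6% in B3galnt1 and in Cdr2, 71.6% in Rab11fip5, 67.6% in Npy and 58% in Calml4, where the tested genes had a median of 60% and quartiles of 53.2% and 66.8%. So 4 of the 5 were above the upper quartile, and Calml4 was just under the median. Which start site these cells used was not measured.

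**Figure D1:**
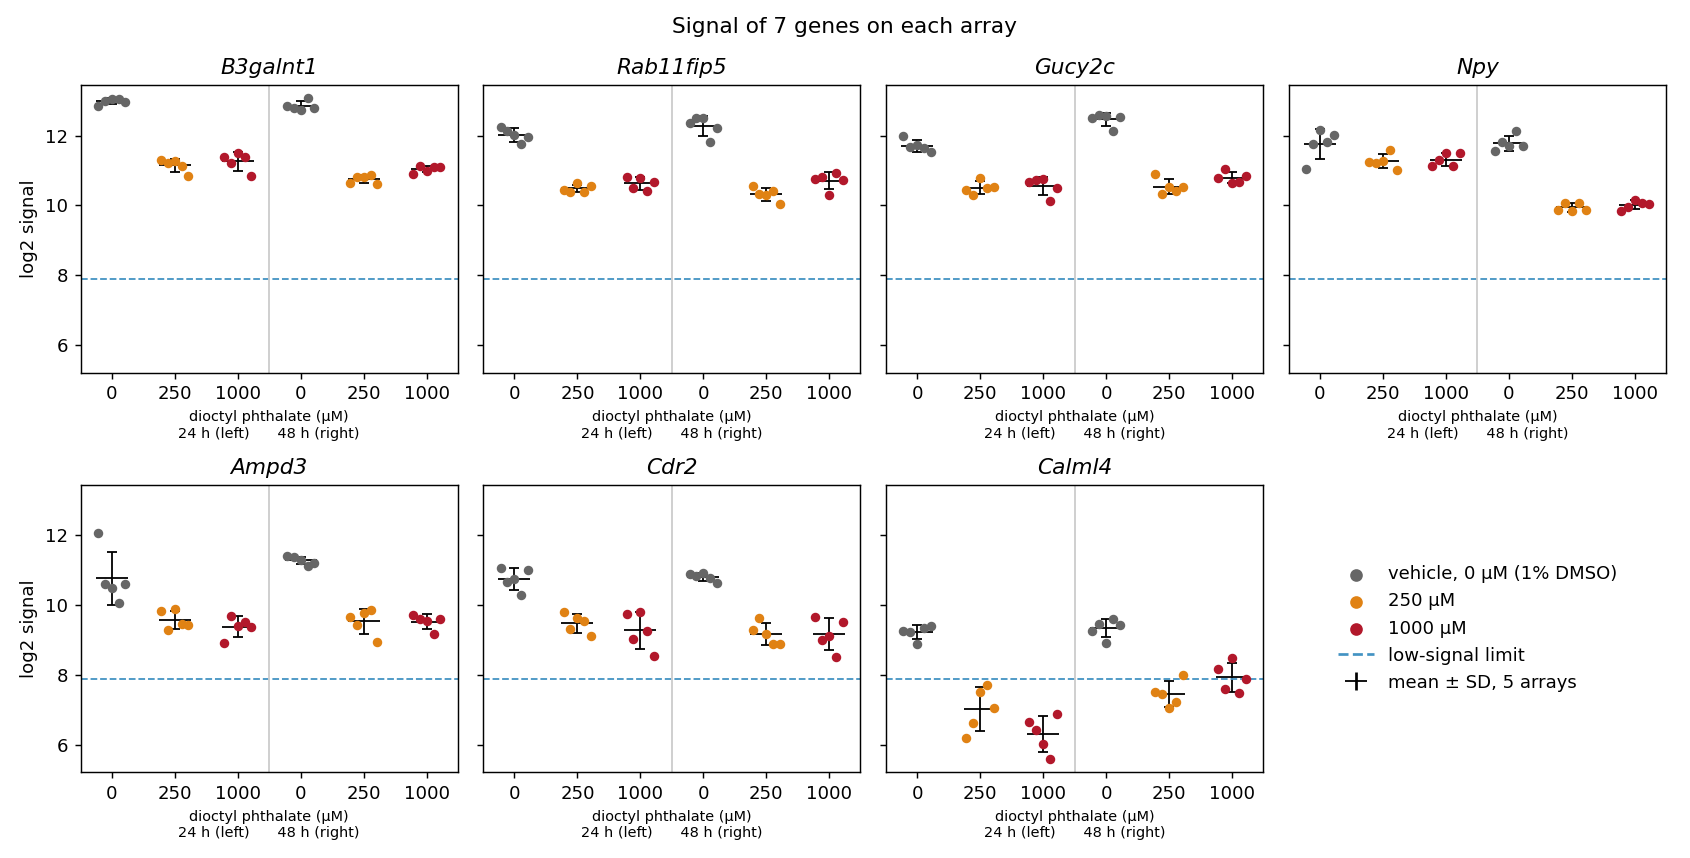
The log2 signal of each of the 7 genes is plotted for every array by dose (0, 250 and 1000 µM) at 24 h, left of the grey line in each panel, and at 48 h, right of it. Points are arrays, black bars give the mean ± SD of 5 arrays, and the dashed line is the low-signal limit of 7.88. The treated arrays lie below all vehicle arrays in every panel at both times, except for Npy at 24 h, and only Calml4 reaches the limit.

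B3galnt1, the globoside synthase, had signals 3.29 to 4.27 times lower in treated wells than in vehicle wells. At 24 h its signals were 7361, 8128, 8415, 8558 and 8058 in vehicle, 2539, 2363, 2491, 2231 and 1840.4 at 250 µM, and 2671, 2359.7, 2923, 2675 and 1824 at 1000 µM. At 48 h they were 7370.4, 7119, 6759, 8650.0 and 7134 in vehicle, 1612, 1804, 1803, 1878 and 1553 at 250 µM, and 1909, 2226, 2038, 2204 and 2175 at 1000 µM. The highest treated array of either time lay far below the lowest vehicle array, and the doses overlapped at 24 h but not at 48 h. The log2 difference from vehicle at 24 h was -1.83 ± 0.0964 (SE) at 250 µM and -1.72 at 1000 µM. At 48 h it was -2.10 at 250 µM and -1.81 at 1000 µM, or 4.27 and 3.50 times lower than vehicle. Ranked over the tested genes from the largest fall down, B3galnt1 stood in place 5, 4, 5 and 5 in the comparisons at 250 µM and 1000 µM at 24 h and then at 48 h.

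Gucy2c, the enterotoxin receptor, differed from vehicle more at 48 h than at 24 h. At 24 h its signals were 4084, 3280.0, 3372, 3182 and 2941 in vehicle, 1396, 1269.7, 1780.4, 1434 and 1459.7 at 250 µM, and 1616, 1680.1, 1714, 1116 and 1458 at 1000 µM. At 48 h they were 5866, 6153, 6029, 4489 and 5979 in vehicle, 1926, 1275, 1482, 1353 and 1477 at 250 µM, and 1757, 2106, 1589, 1636 and 1846 at 1000 µM. No treated array reached a vehicle array, the doses overlapped at both times, and vehicle replicate 4 at 48 h was lower than the other 4. The mean log2 signal at 250 µM was 10.54 at 48 h and 10.51 at 24 h, while that of vehicle was 12.47 at 48 h and 11.71 at 24 h. The log2 difference from vehicle was -1.20 ± 0.119 (SE) at 250 µM and -1.16 at 1000 µM at 24 h, and -1.93 and -1.67 at 48 h.

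Npy, the secreted peptide, overlapped with vehicle at 24 h and stood apart from it at 48 h. At 24 h its signals were 2089, 3456, 4625, 3602 and 4106 in vehicle, 2419.7, 2361, 2489, 3106 and 2086 at 250 µM, and 2232, 2517, 2871, 2226 and 2915 at 1000 µM. Vehicle replicate 1 lay among the treated arrays, so the groups overlapped at 24 h, and the other 4 vehicle arrays were above all treated ones. At 48 h the signals were 3017, 3592, 3324, 4446 and 3299 in vehicle, 927, 1078, 914, 1079.8 and 937 at 250 µM, and 911, 988, 1141, 1083 and 1058 at 1000 µM. At 48 h the highest treated array, at 1141, was far below the lowest vehicle array, at 3017. The log2 difference from vehicle was -0.48 ± 0.140 (SE) at 250 µM and -0.45 at 1000 µM at 24 h, in place 539 and 664 from the largest fall. At 48 h it was -1.83 and -1.76, in place 9 and 6.

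Rab11fip5, the Rab11 adaptor, was lower in treated wells at both doses and both times. At 24 h its signals were 4881, 4465, 4139.6, 3436 and 3947 in vehicle, 1390.3, 1337, 1582, 1348 and 1519 at 250 µM, and 1806, 1443, 1779.6, 1353 and 1633 at 1000 µM. At 48 h they were 5281, 5759, 5842, 3631 and 4775 in vehicle, 1489.9, 1294, 1258, 1351 and 1046 at 250 µM, and 1726, 1793, 1254, 1952 and 1702 at 1000 µM. The treated arrays stayed below all vehicle arrays, and at 48 h vehicle replicate 4 was the lowest of its group, as for Gucy2c. The log2 difference from vehicle was -1.53 ± 0.122 (SE) at 250 µM and -1.38 at 1000 µM at 24 h, and -1.96 and -1.58 at 48 h.

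Ampd3, the AMP deaminase, had the widest vehicle spread of the 7 genes at 24 h. Its signals at 24 h were 4295, 1567, 1437, 1069 and 1571 in vehicle, 907, 628, 939.8, 703 and 684 at 250 µM, and 477, 827, 674, 737 and 666 at 1000 µM. At 48 h they were 2700.2, 2646, 2503, 2249 and 2373 in vehicle, 804, 692, 879.9, 921 and 494 at 250 µM, and 839, 780.5, 742, 574 and 776 at 1000 µM. Vehicle replicate 1 at 24 h was far above the other 4, which were still all above every treated array. The log2 difference from vehicle at 24 h was -1.19 ± 0.224 (SE) at 250 µM and -1.39 at 1000 µM, and without that array it was -0.87 and -1.07. At 48 h, where the vehicle arrays lay close together, it was -1.75 at 250 µM and -1.76 at 1000 µM.

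Cdr2, the Myc-binding protein, was 2.42 to 3.13 times lower in treated wells. At 24 h its signals were 2139, 1621, 1708, 1249 and 2076 in vehicle, 885, 639, 796, 738 and 553 at 250 µM, and 865, 524, 899, 608 and 368 at 1000 µM. At 48 h they were 1916, 1819.7, 1936, 1749.8 and 1585 in vehicle, 622, 793, 574, 469.7 and 470.0 at 250 µM, and 816, 512, 550.3, 366 and 731 at 1000 µM. Treated and vehicle arrays did not overlap, and on the log2 scale the treated arrays were the more scattered at 48 h, with an SD of 0.315 at 250 µM and 0.454 at 1000 µM against 0.117 in vehicle (n = 5 each). The log2 difference from vehicle was -1.28 ± 0.208 (SE) at 250 µM and -1.48 at 1000 µM at 24 h, and -1.64 and -1.65 at 48 h.

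Calml4, the brush border light chain, ran into the low-signal limit of 234. At 24 h its signals were 615, 601, 473, 651 and 671 in vehicle, 72.4, 98.2, 183, 208 and 132 at 250 µM, and 99.1, 83.8, 63.6, 46.8 and 117 at 1000 µM. All 10 treated arrays at 24 h were under the limit and all 5 vehicle arrays above it. At 48 h the signals were 614, 697, 485, 782 and 685 in vehicle, 183, 173, 132, 149 and 256 at 250 µM, and 289, 191, 359.8, 177 and 236 at 1000 µM. At 48 h, 4 of 5 arrays at 250 µM and 2 of 5 at 1000 µM were under the limit, and the groups still did not overlap with vehicle. As measured, the log2 difference was -2.20 ± 0.281 (SE) and -2.92 at 24 h for 250 and 1000 µM, and -1.88 and -1.41 at 48 h. Signals under the limit have no dependable order, so with low group means set to the limit the differences were -1.35 and -1.35 at 24 h and -1.46 and -1.41 at 48 h. The larger measured fall at 24 h, and place 1 among all tested genes at 1000 µM, rest on signals under the limit.

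Across the set, all treated arrays lay below all vehicle arrays for 6 of 7 genes at 250 µM and 6 of 7 at 1000 µM at 24 h, Npy being the exception, and for 7 of 7 at each dose at 48 h. The same non-overlap held for 8% and 7.81% of all tested genes at 24 h, and 15.1% and 10.9% at 48 h, at 250 and 1000 µM. It held in all 4 comparisons for 6 of the 7 genes and for 3.49% of tested genes. These counts describe genes that were picked for their falls and carry no test. The median difference over all tested genes was between -0.07 and -0.03 in the 4 comparisons, on arrays that carry a common scaling.

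**Figure D2:**
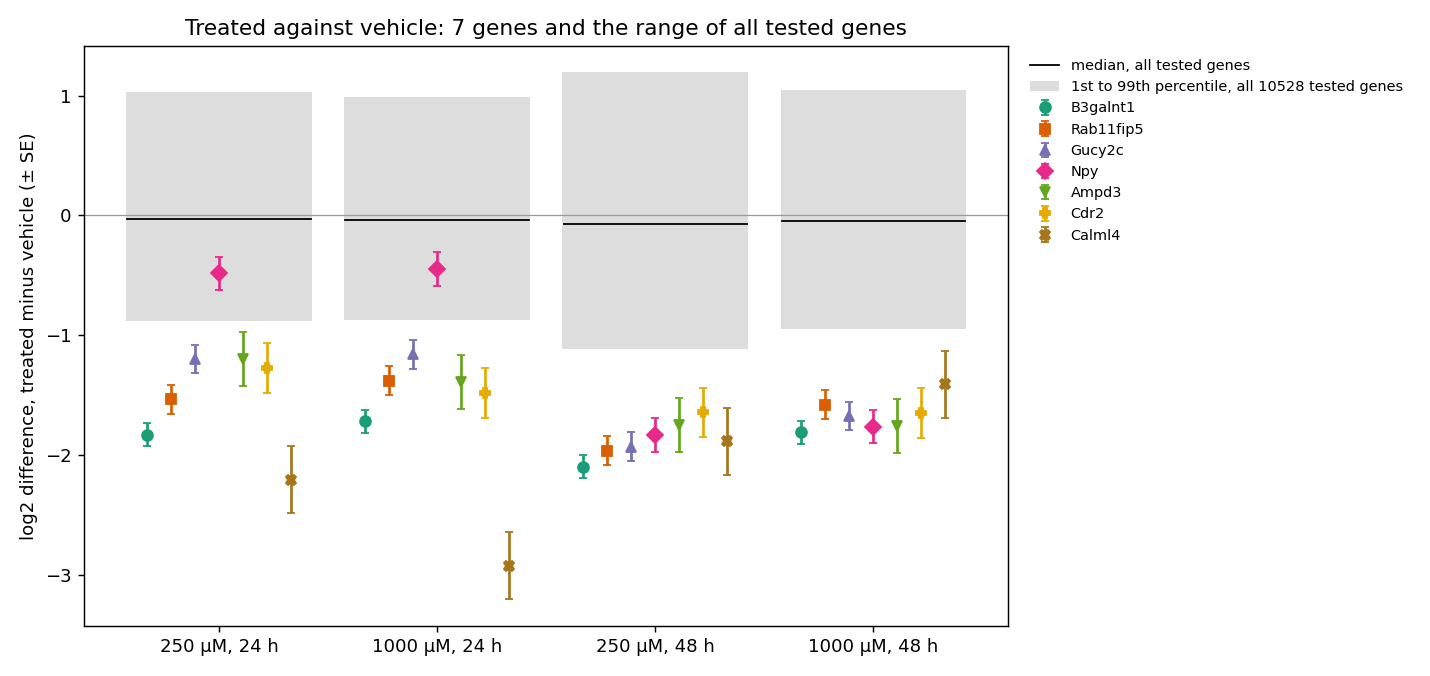
The log2 difference, treated minus vehicle, of each of the 7 genes (± SE) is plotted for 250 and 1000 µM at 24 h and then at 48 h. Grey bars span the 1st to the 99th percentile of the 10528 tested genes, with their median as a black line. At 24 h, 6 of the 7 genes lie under the bar, whose lower end is at -0.88 (250 µM) and -0.87 (1000 µM), and Npy lies inside it, while at 48 h all 7 lie under it, at -1.12 and -0.94. The genes were selected on these differences.

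No gene of the 7 passed the test between doses. Between 1000 and 250 µM, 0 of the 7 genes passed limma's test at an adjusted p of 0.05 at 24 h, where 0.019% of tested genes did, and 0 of 7 at 48 h, where 0.0665% did. At an unadjusted p under 0.05 there were 1 of 7 at 24 h (Calml4, between 2 low groups), against 3.18% of tested genes, and 3 of 7 at 48 h (B3galnt1, Rab11fip5 and Gucy2c), against 12.3%. These 3 had the higher signal at 1000 µM. At 24 h the log2 differences, 1000 minus 250 µM, ran from -0.72 (Calml4) to 0.15 (Rab11fip5). The log2 difference, 1000 minus 250 µM at 48 h, was 0.29 for B3galnt1 (95% interval 0.09 to 0.48, limma adjusted p = 0.220). For Rab11fip5 it was 0.38 (interval 0.13 to 0.63, limma adjusted p = 0.207), and for Gucy2c 0.26 (interval 0.01 to 0.50, limma adjusted p = 0.375). The 48 h intervals of Npy (-0.22 to 0.35), Ampd3 (-0.46 to 0.45), Cdr2 (-0.43 to 0.42) and Calml4 (-0.10 to 1.05) leave room for differences of either sign. For Calml4 the 250 µM group at 48 h was low, and counted from the limit the difference was 0.05. These comparisons did not choose the genes, but they use the treated arrays that did.

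The comparisons between times use arrays that took part in choosing the genes, since a high vehicle signal or a low treated signal at 48 h enlarges a 48 h fall, so their p-values are not independent of the choice. In vehicle wells Gucy2c was higher at 48 h than at 24 h, with a mean log2 signal of 12.47 ± 0.189 at 48 h and 11.71 ± 0.176 at 24 h (SD, n = 5 each). The difference was 0.76 ± 0.119 (SE, limma adjusted p = 1.79e-05), and all 5 arrays at 48 h were above all 5 at 24 h. The call was lost without 4 vehicle arrays at 48 h of raised 3′ over 5′ actin signal, described further on (0.42, limma adjusted p = 0.492, range over the alternatives 2.19e-06 to 0.492). Gucy2c was the 1 gene of 7 called higher, against 16.4% of tested genes, and 0 of 7 were called lower, against 11.7%. Ampd3 had a difference of 0.51 (limma adjusted p = 0.0866), which became 0.84 (limma adjusted p = 0.000352) without vehicle replicate 1 at 24 h. Its adjusted p ranged from 0.000352 to 0.865 over the alternatives. Rab11fip5 had 0.27 (limma adjusted p = 0.102). It had 0.38 without vehicle replicate 4 at 48 h, which passed the test, and -0.19 with that array alone, its adjusted p ranging from 0.0101 to 0.995 over the alternatives. Those of B3galnt1, Npy, Cdr2 and Calml4 were between -0.13 and 0.11 and did not pass the test.

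Under 250 µM, Npy was lower at 48 h, with a mean log2 signal of 9.94 ± 0.121 at 48 h and 11.27 ± 0.208 at 24 h (SD, n = 5 each). The difference was -1.33 ± 0.140 (SE, limma adjusted p = 1.24e-08), with no overlap of arrays. B3galnt1 was lower at 48 h too, by a log2 difference of -0.40 ± 0.0964 (SE, limma adjusted p = 0.00373), the arrays of both times overlapping, a call that was lost with array medians centred (-0.35, limma adjusted p = 0.0876, range over the alternatives 0.000587 to 0.0876). These were 2 of 7 called lower, against 6.52% of tested genes, and 0 of 7 were called higher, against 6.86%. Under 1000 µM, Npy again was lower at 48 h, at 10.01 ± 0.126 against 11.31 ± 0.188 at 24 h (SD, n = 5 each). The difference was -1.29 ± 0.140 (SE, limma adjusted p = 2.74e-08), and the arrays did not overlap. Npy was the 1 of 7 called lower, against 8.11% of tested genes. B3galnt1 had -0.22 (limma adjusted p = 0.110), and -0.33 without replicate 5 of 1000 µM at 24 h, which passed the test. Calml4 was the 1 of 7 called higher, against 9.91%, with a measured difference of 1.62 ± 0.281 (SE, limma adjusted p = 8.71e-05). Its group at 24 h was low, and counted from the limit the difference was 0.05. Npy was picked with its 48 h fall in view.

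**Figure D3:**
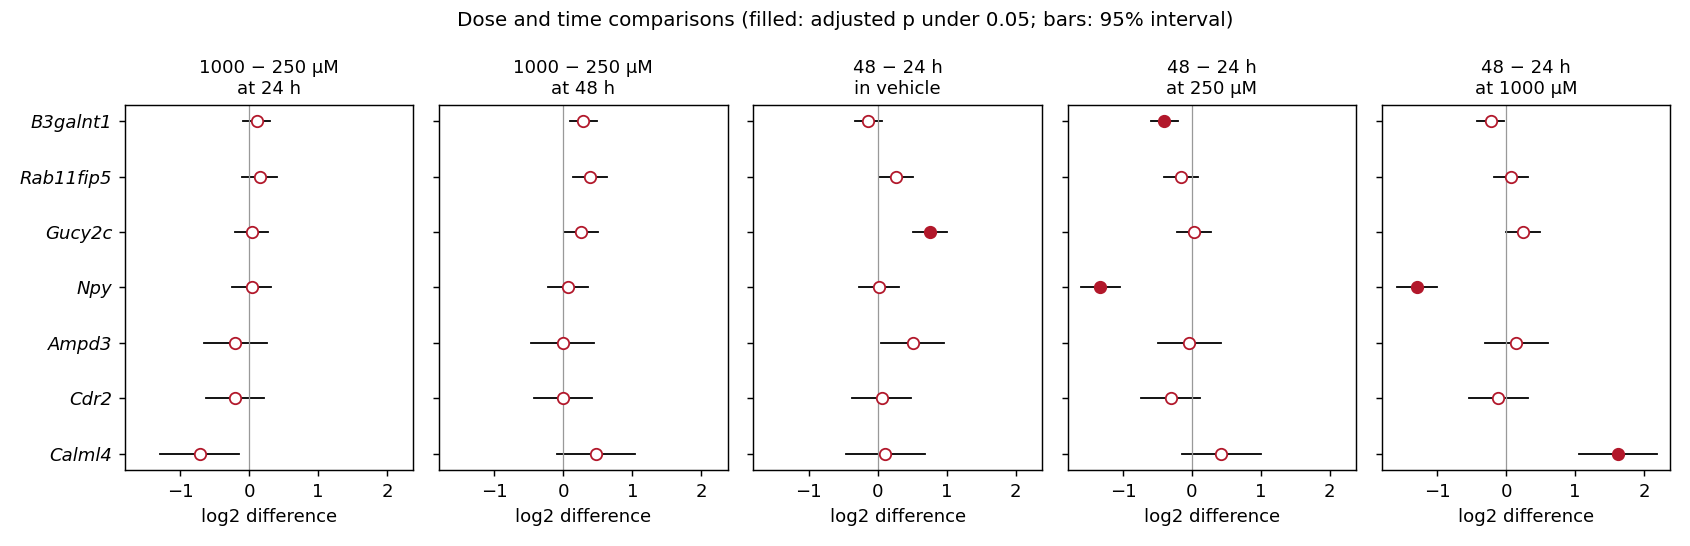
The log2 differences of the 7 genes between doses (1000 minus 250 µM, at 24 and 48 h) and between times (48 minus 24 h, in vehicle, at 250 µM and at 1000 µM) are plotted with 95% intervals, and filled points passed limma's test at an adjusted p of 0.05. No point is filled between doses. Between times the filled points are Gucy2c in vehicle, B3galnt1 and Npy at 250 µM, and Npy and Calml4 at 1000 µM, the last starting from signals under the limit.

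The size of the 48 h falls moved with 4 vehicle arrays. The 3′ over 5′ signal of the beta-actin controls, a log2 ratio that climbs as RNA is shortened, was 2.44, 1.74, 1.70 and 1.66 in vehicle replicates 1, 2, 3 and 5 at 48 h and 1.04 in replicate 4. The means of the other 5 groups were 1.14 to 1.30, and their single arrays ran from 0.98 to 1.51. With replicate 4 as the lone vehicle array at 48 h, assumed to vary like the other groups, the difference of Rab11fip5 was -1.50 at 250 µM and -1.12 at 1000 µM, and that of Gucy2c was -1.59 and -1.34. Both were then smaller falls than with all 5 arrays. The falls of B3galnt1 (-2.33 and -2.04) and Npy (-2.17 and -2.10) were larger. Those of Ampd3 (-1.60 and -1.61), Cdr2 (-1.61 and -1.61) and Calml4 (-2.16, from a low group at 250 µM, and -1.69) changed by less than their standard errors. All 7 kept their direction at both doses. With that ratio entered as a covariate, the vehicle difference of Gucy2c between 48 and 24 h was 0.54 and passed the test.

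Markers of other cell types were read for the types that express some of these genes. Of 8 neuron and neuroendocrine markers, 6 were under the limit (Dbh, Th, Snap25, Uchl1, Chgb and Chga), and of the 2 tested (Syp and Tubb3) 0 were called changed by limma in any of the 4 comparisons with vehicle, nor were any at an unadjusted p under 0.05, while Npy lay between log2 9.94 and 11.78. Of 6 intestinal epithelium markers with a probe set, 2 were under the limit (Lgals4 and Cdx1) and none was called lower. Cdh17, a cadherin, was higher at 24 h (0.31 and 0.33 at 250 and 1000 µM), and Fabp2, a fatty acid binding protein, at 48 h (0.78 and 0.75), while Gucy2c and Calml4 were lower. None of the 9 hepatocyte markers was under the limit, and 1 was called higher and 2 lower at each dose at 24 h, 1 higher and 3 lower at each dose at 48 h. Tat was lower by -1.18 and -1.13 at 24 h and by -0.89 and -0.91 at 48 h (250 and 1000 µM). Fgb was lower in all 4 comparisons (-0.55 to -0.29), and Asgr1 was higher in all 4 (0.29 to 0.85). At 48 h Hnf4a was lower at 250 µM (-0.41) and Serpina1 at 1000 µM (-0.26). The shares of all tested genes called are given further on, with the related lists. Of the other lists, 4 of 5 cholangiocyte, 3 of 7 Kupffer cell and leukocyte and 4 of 6 endothelial markers were under the limit, and Epcam and Cd68 were called lower at 1000 µM at 48 h. Vim, an intermediate filament of stellate cells and of cultured hepatocytes, moved with the 7 genes. Its signal had medians of 10562 in vehicle, 4044 at 250 µM and 4253 at 1000 µM at 24 h, and 12451, 3888 and 4742 at 48 h. The summed signal of all 9 stellate markers was 10087 to 15397 in vehicle, 6816 to 7674 at 250 µM and 6813 to 8129 at 1000 µM at 24 h. At 48 h it was 15412 to 16423 in vehicle, 6712 to 7773 at 250 µM and 7396 to 8624 at 1000 µM. Without Vim, the sum of the other 8 had medians between 3066 and 3522 in all 6 groups. At 24 h Acta2 was called lower too, at both doses, and at 48 h Col1a1 was called higher at 250 µM, and 4 of the 9 were under the limit (Col1a2, Pdgfrb, Lrat and Tagln). The part of Vim-expressing cells in the falls was not tested.

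Over all 30 arrays, treated and vehicle together, the 7 genes varied together. Pearson's r of log2 signal over the 21 pairs was 0.35 to 0.95, with a median of 0.84. With each group's mean taken out, so that well-to-well variation remained, r over the same 21 pairs was -0.51 to 0.63, with a median of -0.07. The pair with the highest value both ways was Rab11fip5 and Gucy2c (0.95 over all arrays, 0.63 within groups), and the lowest within groups was Npy and Ampd3 (-0.51). These are descriptions over 30 arrays that share their treatments. The 7 genes were picked for falls under treatment, so a high r over all arrays follows from the choice. Among the other tested genes, the one most like B3galnt1 was Retreg1 (r = 0.977), followed by Depp1 and Ccn2. Ccn2 was the most like Rab11fip5 (0.973), before Cdh1 and Klf6. Gucy2c was followed most closely by Rhou (0.969), Myadm and Fmo5. For Npy the closest were Ahsg (0.955), Cfhr4 and S100a6. Lbp was the closest to Ampd3 (0.928, before Otud1 and Tes) and to Calml4 (0.887, before Cldn3 and Ccdc134). For Cdr2 they were Gstp1 (0.917), Retreg1 and Alcam. So 3 genes (Retreg1, Ccn2 and Lbp) appeared for more than 1 of the 7.

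Most genes that share a role with one of the 7 did not pass the test against vehicle, nor did most tested genes. Over 7 lists of such genes, 68 were tested, and these treated against vehicle comparisons carry limma's test over all tested genes. At 24 h, 4 of 68 were higher and 17 lower at 250 µM, where 8.31% and 11% of all tested genes were, and 3 were higher and 14 lower at 1000 µM, against 8.28% and 11.2%. At 48 h, 7 were higher and 20 lower at 250 µM, against 15.2% and 26% of all tested genes, and 6 were higher and 21 lower at 1000 µM, against 11.5% and 18.3%. In each comparison the share of the 68 called lower was above that of all tested genes, and the share called higher was below it. The lists were chosen with earlier results of these data known, and no list was tested as a whole. With array medians centred, 13 and 11 of the 68 were called at 24 h (250 and 1000 µM), in place of 21 and 17. Without the 4 vehicle arrays of raised actin ratio, 12 and 14 were called at 48 h, in place of 27 and 27.

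Around B3galnt1, 8 enzymes of globo-series and ganglioside glycolipids were tested, and 3 were lower in each comparison. The strongest was B4galt5, which makes the lactosylceramide that both series start from. Its log2 difference was -1.18 ± 0.122 (SE, limma adjusted p = 2.91e-09) at 250 µM and -0.85 at 1000 µM at 24 h, and -1.38 and -0.98 at 48 h. Hexa, a lysosomal subunit that trims these lipids, had differences of -0.36 to -0.24, lower in all 4. B4galnt1, which makes ganglioside GM2, was higher at 250 µM at both times (0.49 and 0.27) and at 1000 µM at 48 h (0.36). A4galt, which makes the lipid that B3galnt1 extends, was not among the tested genes.

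Around Rab11fip5, 12 genes of the Rab11 family and its partners were tested, with 2 higher in each comparison and 1 lower at each dose at 24 h, and 3 lower at each dose at 48 h. Myo5b, the motor that carries Rab11 vesicles, went the opposite way to Rab11fip5. Its log2 difference was 1.29 ± 0.102 (SE, limma adjusted p = 7.45e-12) at 250 µM and 1.21 at 1000 µM at 24 h, and 1.38 and 1.28 at 48 h. Rab11a itself was higher by 0.16 to 0.33. Myo5a, a related motor, was lower at 48 h (-0.96 at 250 µM and -0.81 at 1000 µM) and did not pass the test at 24 h (-0.16 and -0.22), and the difference between times was not tested.

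Of 5 tested genes around Gucy2c, 0 were called by limma in any comparison, and 1 (Gucy1a1, at 1000 µM and 48 h) had an unadjusted p under 0.05. They include Npr2, a receptor cyclase for natriuretic peptides (0.10, -0.04, -0.30 and 0.21 at 250 and 1000 µM at 24 h, then at 48 h), Gucy1a1, a subunit of the nitric oxide receptor (-0.23, 0.00, -0.42 and -0.52 in the same order), and Nppa, a natriuretic peptide (0.80, 0.37, 0.24 and 0.25, each from a low vehicle group, so that these sizes are not dependable). The ligands Guca2a and Guca2b and the chloride channel Cftr were not among the tested genes.

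Of 5 tested genes around Npy, 0 were called by limma at 24 h, and 0 had an unadjusted p under 0.05 there. At 48 h, 2 were lower at 250 µM and 1 at 1000 µM. Dpp4, the protease that trims Npy and changes its receptor preference, had a log2 difference of -0.54 ± 0.0979 (SE, limma adjusted p = 4.18e-05) at 250 µM and -0.30 at 1000 µM. Pam, which amidates such peptides, was lower at 250 µM (-0.42) and did not pass at 1000 µM (-0.24). Cpe, a carboxypeptidase of peptide maturation, did not pass at any dose or time (0.18 to 0.40). Its vehicle group at 48 h was low, and so was its group at 1000 µM at 48 h.

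Around Ampd3, 19 genes of adenine nucleotide and purine turnover were tested, with 1 higher and 6 lower at 250 µM and 1 higher and 5 lower at 1000 µM at 24 h. At 48 h, 4 were higher and 6 lower at 250 µM, and 3 were higher and 7 lower at 1000 µM. Adss1, which starts the return of IMP to AMP, was higher in all 4, opposite to Ampd3. Its log2 difference was 0.57 ± 0.0731 (SE, limma adjusted p = 2.66e-07) at 250 µM and 0.58 at 1000 µM at 24 h, and 1.11 and 0.87 at 48 h. Gda, the guanine deaminase, was lower (-0.48, -0.40, -0.72 and -0.60), and so was Pnp, the purine nucleoside phosphorylase (-0.37, -0.38, -0.32 and -0.33), each at 250 and 1000 µM at 24 h and then at 48 h.

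Around Cdr2, 8 genes were tested, Morf4l1 and members of the Myc network, with 3 and 2 lower at 24 h (250 and 1000 µM). At 48 h, 1 and 2 were lower, and 0 were higher at either time. Morf4l1 was 1 of the 3 lower at 250 µM at 24 h. Myc itself was lower in all 4, by a log2 difference of -0.51 ± 0.102 (SE, limma adjusted p = 0.000277) at 250 µM and -0.53 at 1000 µM at 24 h, and -0.50 and -0.46 at 48 h. Mlx, a partner in a parallel network, was lower at 24 h (-0.21 and -0.16). Max, the partner of Myc, was lower at 1000 µM at 48 h (-0.19) and did not pass in the other 3. Cdr2l, the close relative of Cdr2, was not among the tested genes.

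Around Calml4, 11 genes of the brush border with the calmodulins were tested, and 4 and 3 were lower at 24 h, 5 and 5 at 48 h (250 and 1000 µM), with 0 higher. Anks4b, a scaffold of the microvillar adhesion complex that holds the myosin of Calml4, was lower in all 4. Its log2 difference was -0.48 ± 0.0875 (SE, limma adjusted p = 8.89e-05) at 250 µM and -0.43 at 1000 µM at 24 h, and -0.58 and -0.54 at 48 h. Ezr, which ties microvillar membrane to actin, was lower too (-0.52, -0.57, -0.49 and -0.33, in the same order), as was the calmodulin gene Calm2 (-0.36, -0.32, -0.23 and -0.33).

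**Figure D4:**
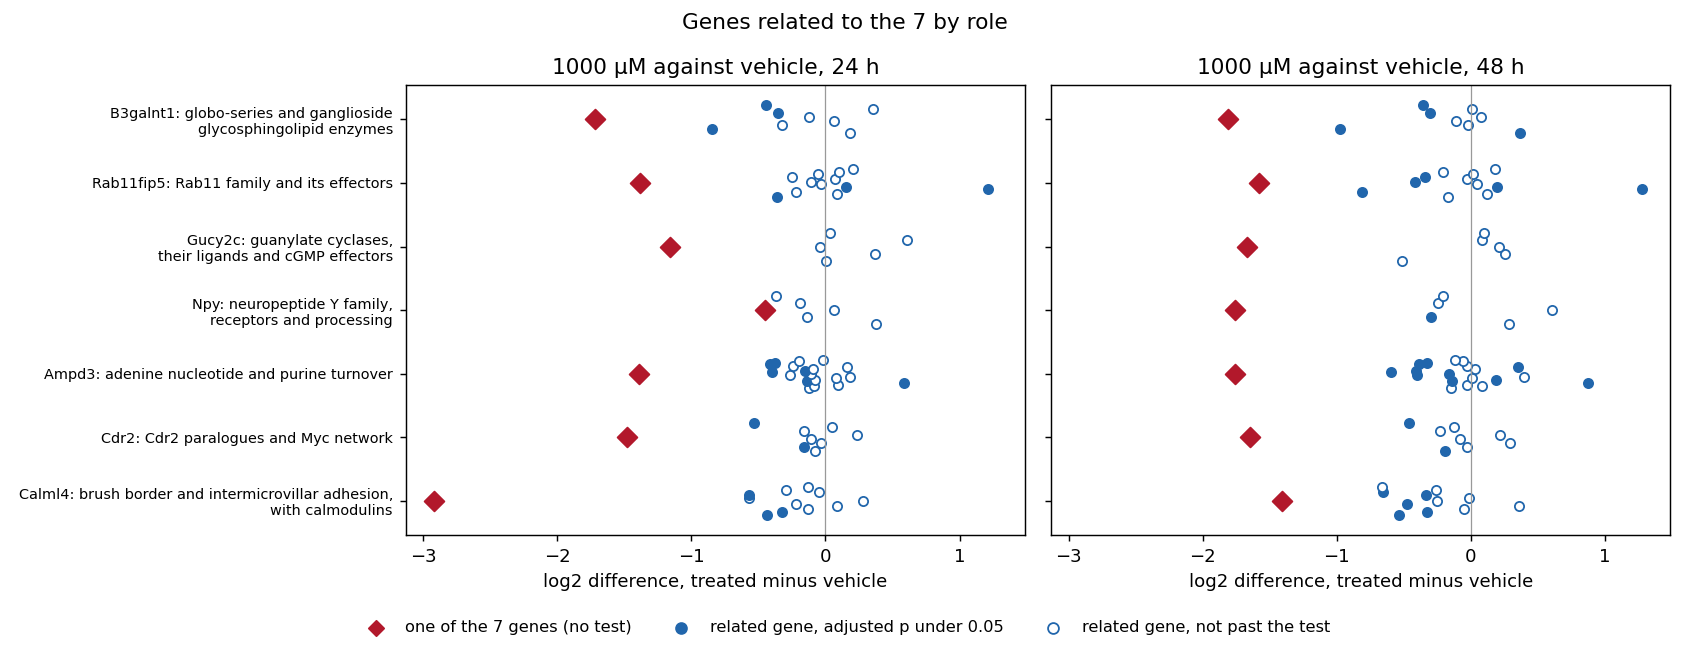
The log2 difference of the tested genes related by role to each of the 7 is plotted for 1000 µM against vehicle at 24 h (left) and 48 h (right), 1 row per list. Circles are related genes, filled where limma's adjusted p is under 0.05, and diamonds are the 7 genes, which carry no test. At 48 h each diamond lies left of all the circles of its own list, and at 24 h too, while Myo5b (1.21 at 24 h and 1.28 at 48 h) and Adss1 (0.58 at 24 h and 0.87 at 48 h) stand at the right.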

How the data were processed

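RNA of 30 wells was measured on Affymetrix rat arrays, 1 per well. The authors deposited linear intensity values for each probe set, made with MAS5 per the submitters' processing notes, whose settings were not given in the sources used. The trimmed mean (2% at each end) was 1500.56 to 1500.66 on every array, so the deposited intensities carry a common scaling. Array medians of log2(signal + 1) spanned 0.34, and none was moved. Of 31099 probe sets, 57 controls and the 40% lowest by mean were left out, leaving 18625, of which 14112 had 1 gene symbol (436 probe sets in the table list several). The highest probe set per gene gave 10528 tested genes.

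limma 3.58.1 in R 4.3.3 estimated a mean for each of the 6 groups from 30 arrays (variance trend, residual degrees of freedom 24), with Benjamini-Hochberg adjustment over the tested genes and calls at an adjusted p under 0.05. The fit was run on simulated data with independent noise for each gene and array, so likeness between arrays was not covered. Groups come from the labels, and replicate numbers follow accession order and are used only to name wells.

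The 7 genes, the related lists and the markers were chosen with earlier results of these data known. Named were the 7, from each list the 3 tested genes of smallest p over the 4 comparisons with vehicle, and for each of the 7 the 3 tested genes of highest correlation. Genes or markers named beyond this were chosen after their values were seen. Gene symbols and promoters come from the platform table and RefSeq. Arrays give no depth, and their number limits the precision. The alternatives are given in the closing section.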

Additional observations from a re-analysis of the deposited data

Results flagged for a closer look

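Of 42 sets of 5 arrays (7 genes in 6 groups), 2 held an array whose gap to its nearest neighbour was large against the range of its set. Chance alone marks about 1 in 20 such sets. For Gucy2c, vehicle replicate 4 at 48 h had a signal of 4489, below the other 4, and its gap took 0.849 of the range. That array had a 3′ over 5′ actin log2 ratio of 1.04, and the other 4 had the raised ratios of 1.66 to 2.44. For Ampd3, vehicle replicate 1 at 24 h had a signal of 4295, above the other 4, and its gap took 0.723 of the range.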

How the results depend on the processing

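Of 532 values of the 7 genes against vehicle under other settings, 522 moved by less than the spread between arrays, 10 moved by more and 0 changed sign. All 10 came from leaving out 4 vehicle arrays at 48 h or from the actin ratio as a covariate. Of 644 values of the dose and time comparisons, 636 kept their side of the threshold and their size, 3 moved, 2 lost the call, 3 gained it and 0 called values changed sign. The calls lost were Gucy2c over time in vehicle without the 4 arrays (0.42) and B3galnt1 over time under 250 µM with array medians centred. Calls gained were Rab11fip5 over time in vehicle without vehicle replicate 4 at 48 h, Ampd3 there without vehicle replicate 1 at 24 h (0.84), and B3galnt1 over time under 1000 µM without replicate 5 of 1000 µM at 24 h.

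Called genes between doses numbered 2 at 24 h, against 0 with medians centred, 4 with 2 groups only and 0 to 3 leaving out 1 array at a time. At 48 h they numbered 7, against 2 with medians centred, 13 over every probe set, 3 with 2 groups only and 1 to 20 leaving out 1 array, where the highest count was without replicate 3 of 1000 µM and the next, 15, without replicate 1 of 250 µM. For time in vehicle the count was 2963, against 4638 over every probe set, 1902 with 2 groups only, 146 without the 4 vehicle arrays and 749 with the actin covariate. With medians centred it was 770 in place of 1408 under 250 µM and 873 in place of 1897 under 1000 µM. Related genes called were 13 in place of 21 (250 µM, 24 h) and 11 in place of 17 (1000 µM, 24 h) with medians centred. Without the 4 vehicle arrays at 48 h they were 12 in place of 27 (250 µM) and 14 in place of 27 (1000 µM). The causes of these changes were not tested. Some of these settings also put fewer arrays in a fit or tested more features.

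Other probe sets of the 7 genes were not run, since each has only 1. The labels name no replicates, but the sample titles carry a running number, in which 5 blocks of 6 hold each group once. A fit with that replicate block, chosen after seeing the data, changed no call of the 7 genes. It called 2 and 7 genes between doses at 24 and 48 h, 3094, 1494 and 2058 between times (vehicle, 250 and 1000 µM), and 22, 19, 27 and 28 related genes. Of 75 pairs of arrays in 1 block, 19 had deviations from the group means that correlated over 0.1 (median 0.04). Of 300 pairs from different blocks and groups, 27 did (median -0.01). Of the 30 arrays, 15 were closest to their own block among the 5. Arrays of 1 block were thus somewhat more alike than others. The labels do not say what the running number stands for, and the main fit did not pair the wells. Signals of Calml4 in treated wells lie near or under the low-signal limit, so their sizes there are bounds.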
